A study of Mus musculus with 7 samples.

Results

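The transcripts described here encode the parts of the nuclear pore and the receptors that carry cargo through it. They were chosen by name, as the symbols that start with Nup or with Ipo or Xpo and a digit, with Kpna, with Kpnb or with Tnpo. The rule found 43 of the 25912 entries listed for each library, 21 nucleoporins and 22 transport receptors. Of these 43, 36 had a mean of the 3 group means of at least 1 FPKM and were tested. The other 7 were Nup210, Nup210l, Nup62cl, Kpna1, Kpna4, Ipo7 and Ipo11. FPKM are fragments per kilobase of transcript scaled to the mapped reads of a library, so levels of different genes are given per length.

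The nuclear pore complex is a ring of nucleoporins set in the nuclear envelope. Y-shaped and inner ring subunits form its scaffold, nucleoporins with phenylalanine-glycine repeats fill its channel, and further subunits form the cytoplasmic filaments and the nuclear basket. Importin alpha proteins (Kpna) bind a nuclear localization signal and are carried in by importin beta (Kpnb1). The other importins (Ipo), the transportins (Tnpo) and the exportins (Xpo) bind their own cargo, and the small GTPase Ran sets the direction. A germinal vesicle (GV) oocyte has an intact nucleus. In metaphase II (MII) the envelope has broken down and the chromosomes lie on the spindle. Maturing oocytes are transcriptionally silent and lose much of their store of maternal mRNA.

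Smart-seq2 was carried out on 7 libraries of 10 mouse oocytes each, from 4-week-old C57BL/6 females primed with pregnant mare serum gonadotropin. The groups were GV oocytes (2 libraries, treatment given as NO), MII oocytes with the solvent DMSO (3 libraries, called control MII below), and MII oocytes with BYBX, a small molecule ligand that stabilizes RNA G-quadruplexes (2 libraries). All were from the ovary, and the genotype field reads Control for GV and control MII and Treat for BYBX. The paper reports that fewer oocytes extruded a polar body as the BYBX concentration rose. Few treated oocytes reached MII by its account, and these had abnormal spindles. The protocol of these libraries does not say how oocytes were staged, and whether the MII groups matched in stage was not tested. The methods state that GV oocytes also received DMSO, which the labels do not, and the dose of BYBX is not named in the protocol of these libraries, while legends that join them with ribosome-bound RNA give 1 μM. Nothing states that the libraries of a group came from separate animals, so p-values measure the spread between these libraries, which may be technical. The authors scaled the values to a spike-in, so a level is meant as transcript per oocyte, and fewer intact oocytes in a pool cannot be told apart from less RNA per oocyte.

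All 8 oocyte markers were listed in each group. Their summed level was 11903 to 14383 FPKM in GV, 1564 to 1685 FPKM in control MII and 5159 to 6301 FPKM in BYBX-treated MII. The 11 markers of granulosa and cumulus cells summed to 5.11 to 11.5 FPKM in GV, 1.44 to 1.88 in control MII and 2.004 to 2.11 in BYBX-treated MII, and 2, 3 and 2 of them were at 0 in all libraries of these groups. The total of all entries was 402113 to 489569 FPKM in GV, 109732 to 127254 in control MII and 201482 to 246710 in BYBX-treated MII. How far these totals set the counts below was measured with 2 further scalings, given beside them.

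On the deposited scale, pore and receptor transcripts were lower in control MII than in GV oocytes almost throughout, and those of BYBX-treated MII lay between. Of the 36 tested members, 33 fell from GV to control MII and 0 rose (limma on log2(FPKM + 1), Benjamini-Hochberg adjusted p under 0.05). Of the 9202 entries tested, 88.3% fell and 0.272% rose, so the members' share is close to that of all entries. The median log2 difference was -1.79 over the members and -1.83 over all tested entries. Between BYBX-treated and control MII, 27 of 36 members were higher with BYBX and 0 were lower, against 65.2% and 0.0326% of all entries, with medians of 0.84 for both. Between BYBX-treated MII and GV, 22 of 36 members were lower with BYBX and 0 were higher, against 69.2% and 0.315% of all entries, with medians of -0.94 and -0.99. At an unadjusted p under 0.05 the counts of 0 were also 0. The 3 comparisons share libraries and are not independent of each other. Differences on this scale understate the change of low transcripts.

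The libraries of the groups were mostly apart. All 3 control MII libraries lay below both GV libraries for 34 of 36 members, the exceptions being Ipo8 and Tnpo1, and this held for 92.5% of all entries. Both BYBX libraries lay above all 3 control MII libraries for 32 members, the exceptions being Ipo8, Nup35, Tnpo1 and Xpo4, against 79% of all entries. Both BYBX libraries lay below both GV libraries for 30 members, against 82.3% of all entries.

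These directions depended on the scale. With each library set to the same total FPKM, 16 members were lower and 10 higher in control MII than in GV (49.5% and 23.3% of all entries), and 3 were lower and 12 higher with BYBX than in control MII (8.22% and 39.9%). Between BYBX-treated MII and GV this scaling gave 3 lower and 3 higher members (13.3% and 5.3%). With each library centred on its median, 9 members were lower and 18 higher in control MII than in GV (26.7% and 48.8%), and 17 were lower and 1, Kpna2, higher with BYBX than in control MII (43.9% and 18.4%). Between BYBX-treated MII and GV, centring gave 6 lower and 8 higher members (13.6% and 15.2%). The same total moved the median of all tested entries by 1.27, -0.49 and 0.82 on the log2 scale in these 3 comparisons, and centring by 2.30, -1.28 and 1.03. Under all 3 scalings 9 of the 36 tested members (25%) fell from GV to control MII, as did 2456 of the 9202 tested entries (26.7%). Both counts equal those of median centring alone, so the other scalings removed none. The 9 members were Kpna2, Kpna3, Ipo9, Xpo1, Xpo5, Nup43, Nup50, Nup54 and Nup188, a share close to that of all entries. What is unequal between members within a library does not depend on the scale.

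**Figure D1:**
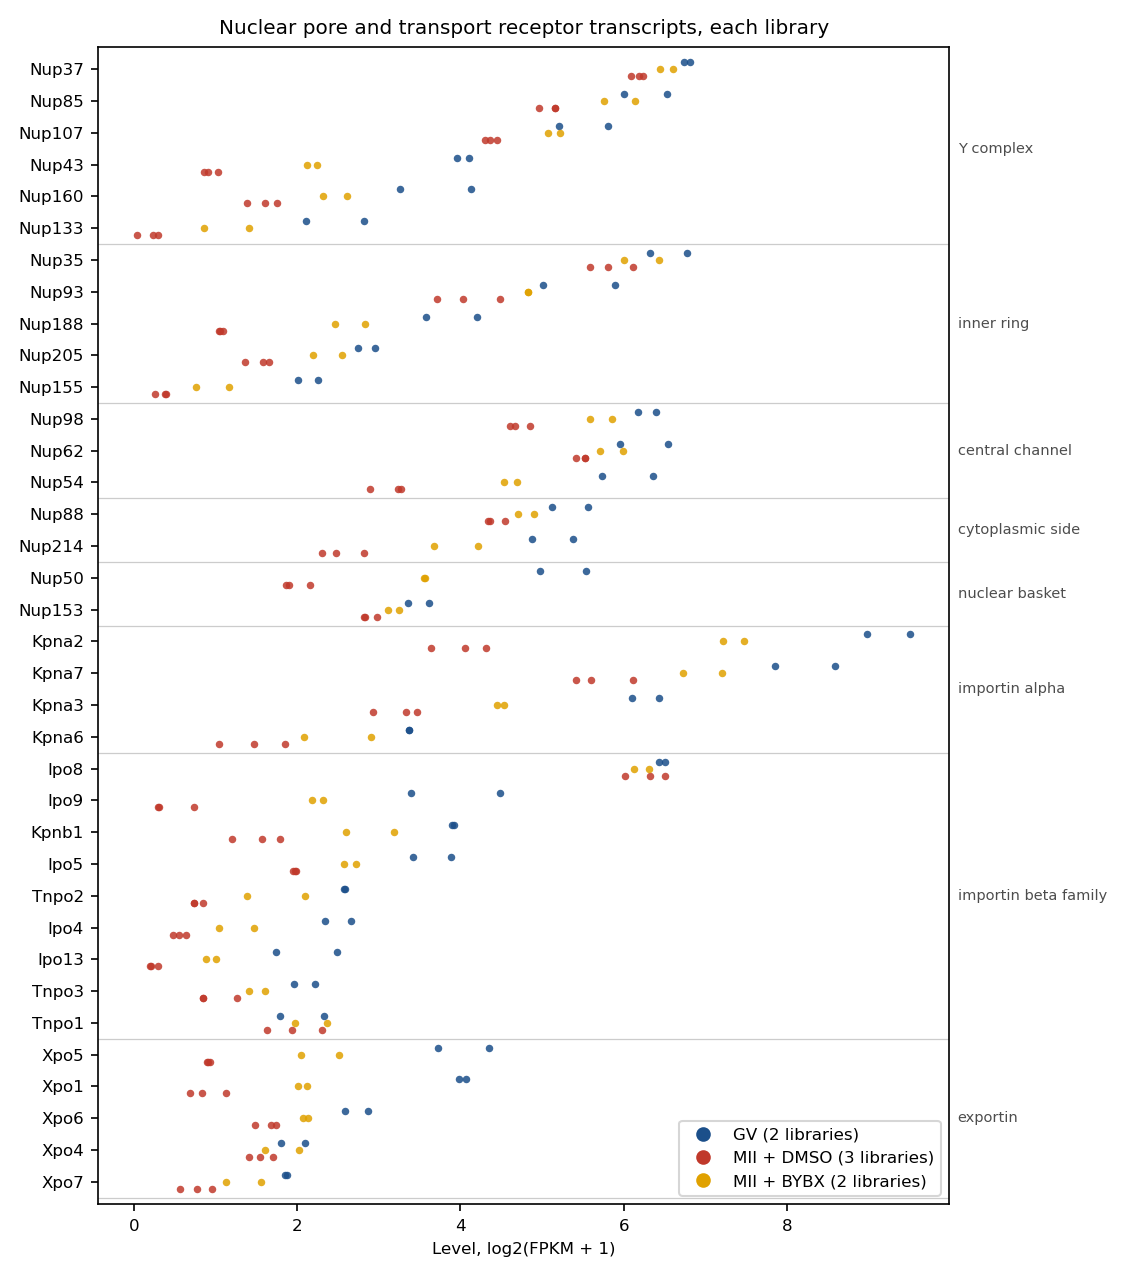
Level of each of the 36 tested members in each of the 7 libraries, as log2(FPKM + 1), grouped by role and coloured by group. Kpna2 shows the widest gap between GV and control MII, the points of Tnpo1 overlap between all groups, and those of Ipo8 in control MII overlap both other groups.

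Transcripts of maturing oocytes are known to be polyadenylated and translated through the cytoplasmic polyadenylation element (CPE), a U-rich motif near the end of the 3′ UTR, and BYBX binds G-quadruplexes, so both kinds of motif were searched. The CPE was searched as TTTTAT or TTTTAAT, on the transcript strand, in the last 100 bases of the 3′ UTR of the longest annotated protein-coding transcript (GENCODE vM21, GRCm38). It occurred in 11 of 36 tested members (30.6%) and in 20.2% of the 8766 tested entries that matched a transcript. The 11 were Ipo5, Ipo8, Kpnb1, Nup35, Nup37, Nup43, Nup54, Nup62, Nup88, Nup98 and Xpo4. The sites below are those of 3 members that kept much of their GV level in control MII and of 2 that did not. Capitals mark the motif.
Ipo8: aaatgcaggaacTTTTATgaatgtactgta
Nup37: aaaaatccttatTTTTATatcaaacatact
Nup35: aactttgtcaatTTTTATgtgc
Nup43: tagttatcaaaaTTTTATcaccagaaagtg
Nup54: tttgttttgtttTTTTATttctaaaaatga

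The printed stretch of Ipo8 lies at chr6:148770716-148770745 on the minus strand, and that of Nup37 at chr10:88178300-88178329 on the plus strand. Those of Nup35 and Nup43 lie on the plus strand at chr2:80658881-80658902 and chr10:7678811-7678840. That of Nup54 lies on the minus strand at chr5:92415579-92415608. All are in the 3′ UTR. Nup54 has another match there, in the stretch chr5:92415540-92415561, which is not shown. Over the members with a motif, the median difference between control MII and GV was -0.93 on the log2(FPKM + 1) scale, against -1.92 over those without. Over all matched entries the same medians were -1.25 and -1.98. Between BYBX-treated and control MII the medians were 0.39 with and 0.88 without a motif among members, and 0.58 and 0.92 among all matched entries. The members with a motif still ranged from Ipo8 at -0.19 to Nup43 at -3.10 between control MII and GV. No test was made, and these differences of medians are a description.

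**Figure D2:**
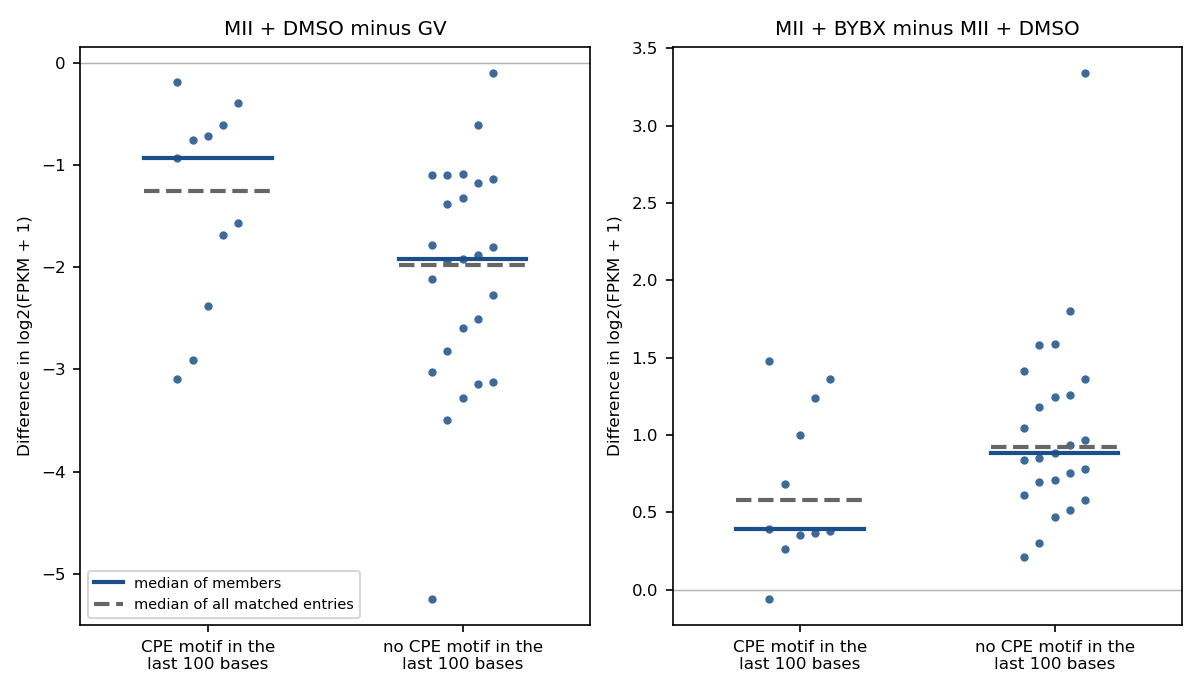
Difference in log2(FPKM + 1) of the 36 tested members by whether the CPE motif occurs in the last 100 bases of the 3′ UTR, for control MII minus GV and for BYBX-treated minus control MII; each point is 1 member, and the lines are medians of members and of all matched entries. The 11 members with a motif have a median of -0.93 in the left panel and the 25 without one of -1.92, with wide overlap.

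The G-quadruplex motif, searched on the transcript strand, had 4 stretches of 3 or more G, each separated from the next by 1 to 7 bases of any kind, so that a G inside a longer stretch can count as a separator. It occurred in 8 of 36 tested members (22.2%), against 18.7% of matched entries. In the 3′ UTR it occurred in 7 members (19.4%) and in 9.25% of matched entries. Members had a longer median transcript (4825 bases against 2984), but not a longer median 3′ UTR (940 against 1037 bases). The sites of Tnpo1 and Xpo4 are shown because neither transcript was called different in any of the 3 comparisons on the deposited scale, and that of Nup188 because it fell most among the inner ring subunits. Capitals mark stretches of G, and the first stretch of Xpo4 counts as 2 runs with a G between them.
Tnpo1: GGGaGGGGcGGGaGGG
Xpo4: GGGGGGGGtGGGGGtGGGG
Nup188: GGGcaGGGagccaaGGGGctGGG

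They lie in the 3′ UTR at chr13:98844496-98844511 on the minus strand, chr14:57577996-57578014 on the minus strand and chr2:30344041-30344063 on the plus strand. Another match in the 3′ UTR of Tnpo1, at chr13:98843972-98843988, is not shown. The median difference between BYBX-treated and control MII was 0.64 over members with the motif and 0.87 over those without, and 0.77 and 0.86 over all matched entries. Between control MII and GV these medians were -1.45 and -1.83 for members and -1.58 and -1.90 for all matched entries. A match of letters does not show that a quadruplex forms.

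Among the importin alpha genes, Kpna2 was the most abundant member in GV oocytes and changed most. Kpna2 (importin alpha 1) is annotated at chr11:106988629-106999541 on the minus strand of GRCm38. It was at 728 and 505 FPKM in GV, at 15.6, 11.4 and 18.9 in control MII, and at 148 and 176 in BYBX-treated MII. No library of 1 group reached the range of another. Its mean in control MII was 2.49% of that in GV, and with BYBX it was 26.3%. The log2 difference was -5.24 (95% interval -5.85 to -4.64, adjusted p 1.1e-09) between control MII and GV, and 3.34 (2.73 to 3.95, adjusted p 3.8e-07) between BYBX-treated and control MII. It was the only member called higher with BYBX under all 3 scalings. Its rank by level among the 43 members was 1 in GV and with BYBX, and 11 in control MII. A processed pseudogene, Kpna2-ps, is annotated, and reads that map to both could not be placed uniquely, so the level of Kpna2 is uncertain to that extent.

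Kpna7, the oocyte and early embryo importin alpha, was the second most abundant member in GV. It was at 382 and 229 FPKM in GV, 67.9, 41.6 and 47.6 in control MII, and 105 and 146 in BYBX-treated MII. The difference was -2.51 between control MII and GV (adjusted p 3.0e-06) and 1.26 between BYBX-treated and control MII (adjusted p 0.0027). Neither was called at the same total FPKM (adjusted p 0.090 and 0.34) or with median centring (0.53 and 0.96), where the second turned to -0.019. Exons of Kpna7 overlap those of Arpc1a on the opposite strand, and the libraries are not stated to keep strand. Kpna3 (importin alpha 4) was at 85.2 and 67.9 FPKM in GV, 9.11, 10.1 and 6.60 in control MII, and 20.8 and 22.1 with BYBX. It fell by 3.02 on the log2 scale from GV to control MII (adjusted p 8.1e-08). Kpna6 was at 19.4% of its GV mean in control MII and at 52.3% with BYBX. Kpna1 and Kpna4 stayed below 1 FPKM in every library and were not tested. All 4 tested importin alpha genes fell from GV to control MII, where 88.3% of all entries fell. All 4 were higher with BYBX than in control MII, where 65.2% of all entries were higher.

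The ratio of Kpna7 to Kpna2 within a library was 0.526 and 0.454 in GV, 4.35, 3.64 and 2.52 in control MII, and 0.712 and 0.832 in BYBX-treated MII. Kpna2 was thus the more abundant of the pair in GV and BYBX-treated MII, and Kpna7 in control MII. This pair and the pairs below were chosen after their values were seen, so no test is given. Together Kpna2 and Kpna7 made up 78.5 and 74.0% of the summed FPKM of all transport receptors in GV, 48.1, 30.7 and 38.7% in control MII and 62.9 and 70.6% with BYBX.

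Importin beta and its relatives differed widely. Ipo8, an importer known to carry Argonaute and SMAD proteins, was at 85.5 and 89.5 FPKM in GV, 63.4, 90.01 and 78.9 in control MII, and 78.5 and 69.0 in BYBX-treated MII. The control MII libraries span the range of both other groups, and the BYBX libraries lie below those of GV. Its rank by level among the 43 members was 5 in GV and with BYBX, and 1 in control MII. Its difference between control MII and GV was -0.19 (95% interval -0.73 to 0.35, adjusted p 0.48), and between BYBX-treated and control MII -0.06 (-0.60 to 0.48, adjusted p 0.84). With the same total FPKM or median centring, Ipo8 was higher in control MII than in GV by 1.68 and 2.12. Under these scalings its difference between BYBX-treated and control MII was -0.94 and -1.34 (adjusted p 0.0026 and 8.2e-04). Tnpo1, a transportin for proteins with a proline-tyrosine signal, was at 4.03 and 2.46 FPKM in GV, 2.82, 3.95 and 2.10 in control MII and 4.15 and 2.92 with BYBX. Its difference between control MII and GV was -0.10 (-0.67 to 0.46, adjusted p 0.71), and under both other scalings it was positive.

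Ipo9, known as an importer of histones, lay at the other end. It was at 21.4 and 9.56 FPKM in GV, 0.664, 0.225 and 0.239 in control MII and 3.99 and 3.53 in BYBX-treated MII. In control MII its mean was 2.43% of that in GV, and with BYBX 24.3%. The difference was -3.50 between control MII and GV (adjusted p 6.1e-08) and 1.80 between BYBX-treated and control MII (adjusted p 1.1e-04). Kpnb1, the partner of importin alpha, was at 14.2 and 13.8 FPKM in GV, 1.31, 1.97 and 2.47 in control MII and 8.08 and 5.04 with BYBX. The ratio of Ipo8 to Kpnb1 within a library was 6.03 and 6.47 in GV, 48.5, 45.7 and 32.0 in control MII, and 9.71 and 13.7 with BYBX. Of the 9 tested genes of the family, 7 fell from GV to control MII, where 88.3% of all entries fell. With BYBX 7 were higher than in control MII, where 65.2% of all entries were higher, Ipo8 and Tnpo1 being the others in both. Ipo7 and Ipo11 were below the level filter because of their low MII levels: Ipo7 was at 2.73 and 1.69 FPKM in GV and at 0.101 to 0.123 in control MII, and Ipo11 at 2.15 and 1.13 in GV and at 0.0629 to 0.132 in control MII. They are counted among no test.

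Among the exportins, Xpo1 (CRM1), the receptor for leucine-rich export signals, was at 14.8 and 15.8 FPKM in GV, 0.782, 1.19 and 0.611 in control MII, and 3.02 and 3.37 with BYBX. Xpo5, which exports microRNA precursors, was at 19.4 and 12.2 FPKM in GV, 0.861, 0.915 and 0.874 in control MII, and 3.12 and 4.71 with BYBX. The groups did not overlap for either gene. Xpo1 fell by 3.14 on the log2 scale from GV to control MII (adjusted p 1.1e-08) and Xpo5 by 3.12 (adjusted p 3.7e-08). With BYBX they were higher than in control MII by 1.18 and 1.37 (adjusted p 3.6e-04 and 3.0e-04), and Xpo1 remained 1.96 below GV, the largest gap to GV of any member. Xpo4 was at 3.29 and 2.48 FPKM in GV, 2.25, 1.92 and 1.66 in control MII, and 2.04 and 3.06 with BYBX, with a difference of -0.40 between control MII and GV (95% interval -0.87 to 0.07, adjusted p 0.10). The ratio of Xpo4 to Xpo1 within a library was 0.222 and 0.157 in GV, 2.88, 1.61 and 2.72 in control MII and 0.676 and 0.910 with BYBX. Xpo6 and Xpo7 were at 37.4% and 27.0% of their GV means in control MII. Exons of Xpo7 overlap those of Npm2 on the same strand. Npm2 was at 2065 to 2145 FPKM in GV, so the Xpo7 values are uncertain.

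**Figure D3:**
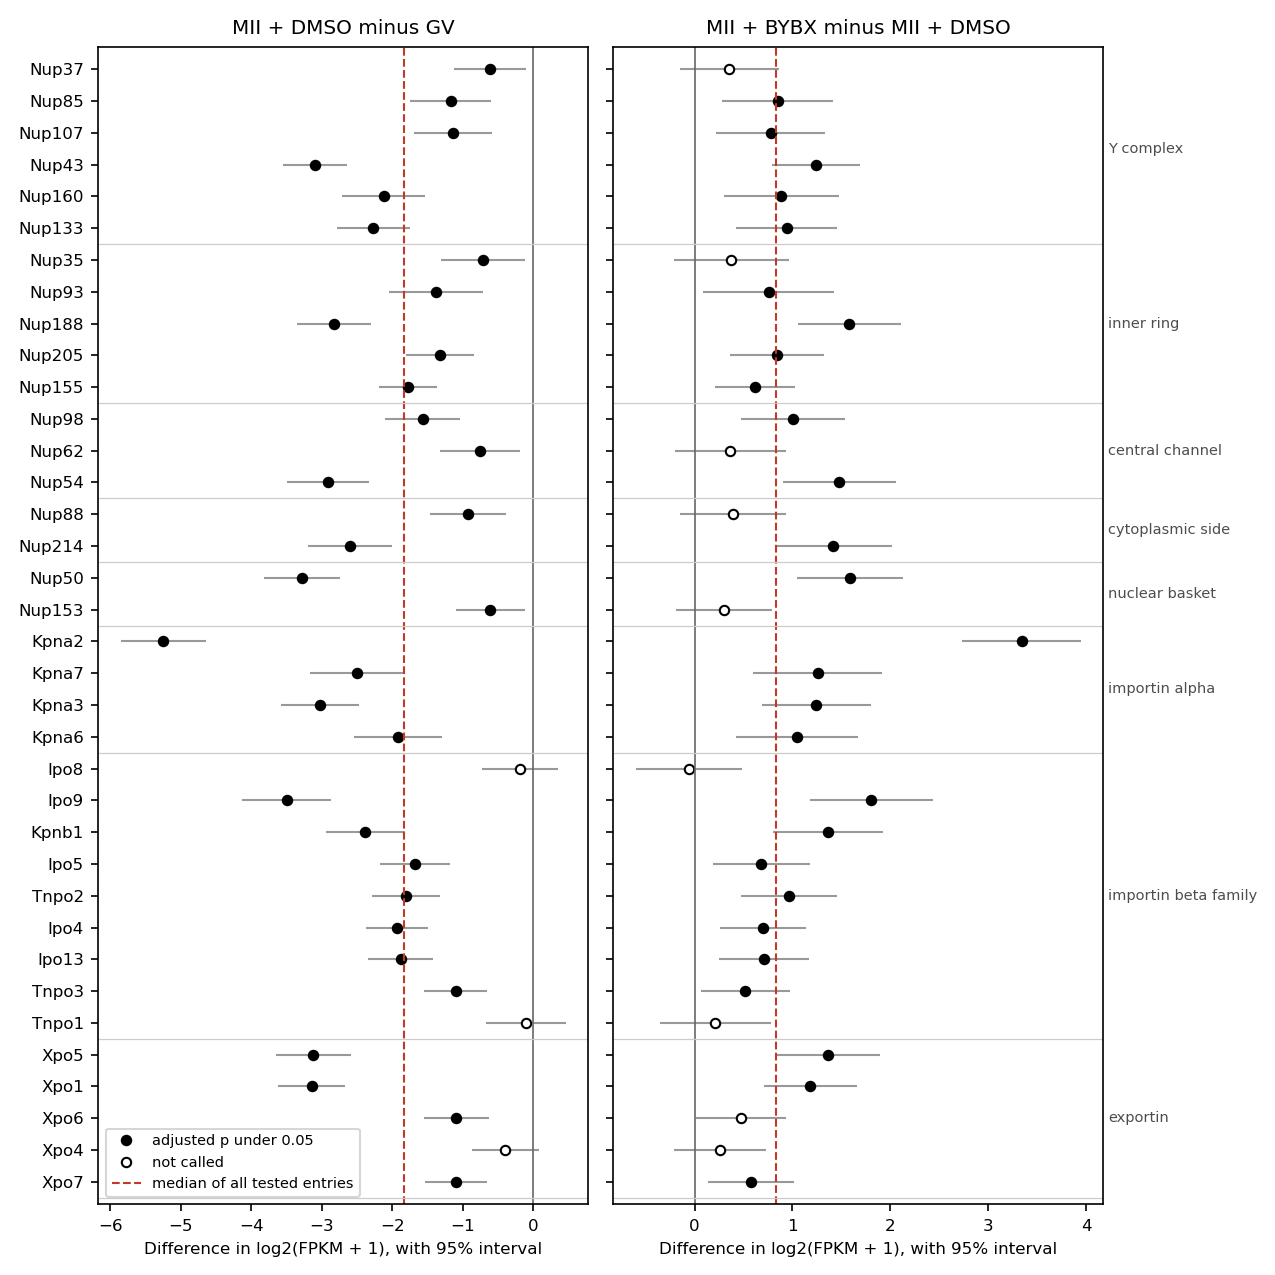
Differences in log2(FPKM + 1) with 95% intervals for the 36 tested members, for control MII minus GV (left) and BYBX-treated minus control MII (right). Filled points passed the adjusted p threshold, and the dashed line is the median of all 9202 tested entries, at -1.83 and 0.84. Kpna2 lies farthest from 0 in both panels.

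The nucleoporins fell less from GV to control MII than the receptors in the median, by -1.48 against -1.90 on the log2 scale, and this comparison of lists was not tested. All 6 tested subunits of the Y complex fell, over a wide range, where 88.3% of all entries fell. Nup37, the most abundant, was at 111 and 106 FPKM in GV, 66.8, 71.6 and 74.0 in control MII, and 96.4 and 85.8 with BYBX. Its mean in control MII was 65.3% of that in GV and the difference -0.61 (adjusted p 0.026), a call lost without GV library 1 or control MII library 1 or 2 (0.066 to 0.075). Nup85 was at 91.5 and 63.1 FPKM in GV, 30.2, 34.8 and 34.6 in control MII and 69.1 and 52.9 with BYBX, and Nup107 at 55.2 and 35.8, then 20.8, 18.6 and 19.5, then 36.3 and 32.5. Nup43, a smaller propeller subunit, was at 16.3 and 14.6 FPKM in GV, 0.885, 0.820 and 1.05 in control MII and 3.36 and 3.72 with BYBX. Nup43 fell by 3.10 (adjusted p 7.9e-09), to 5.97% of its GV mean. Nup160 and Nup133 were at 16.0% and 3.16% of GV in control MII. The ratio of Nup37 to Nup43 within a library was 6.85 and 7.26 in GV, 75.4, 87.3 and 70.4 in control MII, and 28.7 and 23.0 with BYBX. Under both other scalings Nup37, Nup85 and Nup107 were higher in control MII than in GV.

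Of the inner ring, which holds the scaffold to the membrane, all 5 subunits fell from GV to control MII, where 88.3% of all entries fell. Nup35 was at 108 and 79.1 FPKM in GV, 68.3, 47.0 and 55.0 in control MII, and 63.0 and 84.99 with BYBX, where its libraries overlapped those of both other groups. Its call between control MII and GV (-0.71, adjusted p 0.025) was lost without GV library 1 (0.19) or control MII library 2 (0.10) or 3 (0.052). Nup93 was at 58.6 and 31.3 FPKM in GV, 21.3, 15.3 and 12.1 in control MII and 27.5 and 27.4 with BYBX. Nup188 fell to 7.72% and Nup155 to 8.14% of the GV mean in control MII, and Nup205 to 30.5%. With BYBX these 3 were at 37.5%, 28.6% and 67.4%. Nup35 and Nup93 were higher in control MII than in GV under both other scalings, for Nup93 with an adjusted p of 0.22 at the same total FPKM. Exons of Nup35 overlap those of Dusp19 on the same strand. The membrane nucleoporin Nup210 was at 0.408 to 0.575 FPKM in GV, and its paralogue Nup210l was listed at 0 in the 3 control MII libraries. Neither was tested.

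The channel nucleoporins Nup62 and Nup54, which are partners in one complex, differed. Nup62 was at 91.9 and 60.8 FPKM in GV, 41.5, 44.9 and 44.9 in control MII and 62.6 and 51.3 with BYBX. Nup54 was at 81.0 and 52.2 FPKM in GV, 8.44, 8.65 and 6.44 in control MII and 22.2 and 24.8 with BYBX. In control MII, Nup62 was at 57.3% and Nup54 at 11.8% of GV. The difference between control MII and GV was -0.76 for Nup62 (adjusted p 0.014) and -2.91 for Nup54 (adjusted p 1.6e-07), and Nup62 was higher in control MII under both other scalings. Without GV library 1 the call of Nup62 was lost (adjusted p 0.13). Nup98, which also lines the channel, was at 83.1 and 71.0 FPKM in GV, 24.5, 23.4 and 27.9 in control MII and 56.7 and 46.9 with BYBX. It fell by 1.57 (adjusted p 3.6e-05) and rose above control MII with BYBX by 1.003 (adjusted p 0.0028), and was higher in control MII than in GV under both other scalings, with an adjusted p of 0.18 at the same total FPKM. Exons of Nup62 overlap those of Il4i1 on the same strand and Atf5 on the opposite strand.

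On the cytoplasmic side, Nup88 and Nup214, which bind each other, were at 50.8% and 14.1% of GV in control MII. Nup88 was at 46.2 and 33.8 FPKM in GV, 19.1, 22.3 and 19.6 in control MII and 29.0 and 25.03 with BYBX. Nup214 was at 40.6 and 28.4 FPKM in GV, 4.55, 3.95 and 6.05 in control MII and 17.6 and 11.8 with BYBX. With BYBX only Nup214 of this pair passed the test against control MII (1.42, adjusted p 5.3e-04), and Nup88 was at 0.39 (95% interval -0.15 to 0.93, adjusted p 0.18). Nup88 was higher in control MII than in GV under both other scalings. In the nuclear basket, Nup50, which helps to release importin alpha, was at 45.6 and 30.4 FPKM in GV, 3.47, 2.63 and 2.74 in control MII and 10.8 and 10.9 with BYBX. Nup153, an anchor of the basket named here after its values were seen, was at 11.3 and 9.23, then 6.86, 6.07 and 6.12, then 7.65 and 8.47 FPKM. Nup50 fell by 3.28 from GV to control MII (adjusted p 2.6e-08). The ratio of Nup153 to Nup50 within a library was 0.247 and 0.304 in GV, 1.98, 2.31 and 2.24 in control MII and 0.712 and 0.779 with BYBX.

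**Figure D4:**
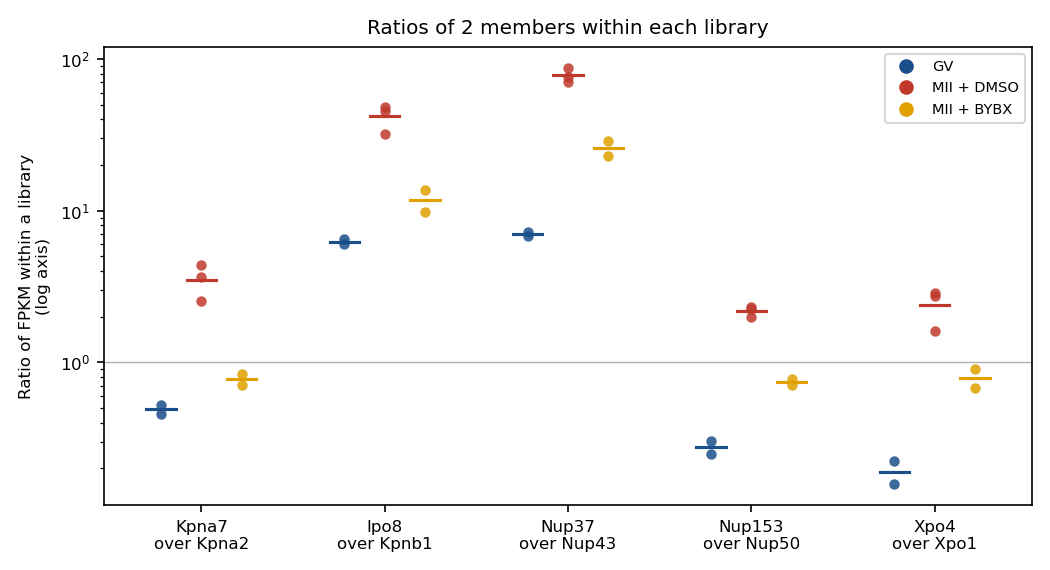
Ratio of the FPKM of 2 members within each library, for 5 pairs, on a log axis; points are libraries and short lines are group means. In each pair the control MII libraries lie highest, GV lowest and BYBX-treated MII between, with no overlap between groups.

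With BYBX, 5 of the 6 Y complex subunits, 4 of the 5 inner ring, 2 of the 3 channel, 1 of the 2 cytoplasmic and 1 of the 2 basket subunits were higher than in control MII, where 65.2% of all entries were higher. The 5 nucleoporins not called were Nup37, Nup35, Nup62, Nup88 and Nup153, with differences of 0.30 to 0.39 and adjusted p of 0.18 to 0.25. The call of Nup93 (0.76, adjusted p 0.046) was lost in 4 of the 7 fits that left out 1 library, those without BYBX library 1 or 2 or control MII library 2 or 3 (adjusted p 0.088 to 0.15). The calls of Nup85 and Nup107 were lost without BYBX library 1 (0.12 and 0.10), and that of Nup107 also without control MII library 2 (0.056). Against GV, Nup37 with BYBX was at 84.0% of the mean, Nup85 at 79.0% and Nup43 at 23.0%.

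Against GV, the members that remained lowest in BYBX-treated MII were Xpo1 (-1.96, adjusted p 6.7e-05), Kpna2 (-1.90, adjusted p 1.8e-04) and Nup43 (-1.85, adjusted p 6.7e-05). Their means with BYBX were 20.9%, 26.3% and 23.0% of those in GV. At the other end lay Tnpo1 at 0.11 (95% interval -0.51 to 0.73, adjusted p 0.75), Xpo4 at -0.14 (-0.65 to 0.38, adjusted p 0.62) and Ipo8 at -0.25 (-0.84 to 0.35, adjusted p 0.44). The 6 members whose BYBX and GV libraries overlapped were Nup107, Nup35, Nup62, Nup85, Tnpo1 and Xpo4. By role, the test against GV was passed by 3 of 6 Y complex, 2 of 5 inner ring, 1 of 3 channel, 1 of 2 cytoplasmic and 1 of 2 basket subunits, by 4 of 4 importin alpha genes, 7 of 9 importin beta relatives and 3 of 5 exportins, all of them lower with BYBX, where 69.2% of all entries were lower. With median centring Ipo8, Xpo4 and Tnpo1 were higher with BYBX than in GV by 0.78, 0.89 and 1.13.

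The summed FPKM of all receptors divided by that of all nucleoporins, within a library, was 1.58 and 1.53 in GV, 0.540, 0.565 and 0.544 in control MII, and 0.774 and 0.946 with BYBX. Without Kpna2 and Kpna7 the ratio was 0.341 and 0.399 in GV, 0.280, 0.392 and 0.333 in control MII, and 0.288 and 0.278 with BYBX. GV and control MII then overlap. The receptors left in this sum include Ipo8, at 63.4, 90.01 and 78.9 FPKM in control MII and at 88.5% of its GV mean. Both ratios thus follow a few abundant genes. In the median, tested receptors were at 15.7% of their GV means in control MII and nucleoporins at 31.6%. Of all FPKM in a library, nucleoporins took 0.161 to 0.182% in GV, 0.248 to 0.294% in control MII and 0.210 to 0.240% with BYBX.

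Pore and Ran cycle genes outside the naming rule were read from a list of 25, of which 23 were tested. In control MII against GV, 20 fell (87.0%, against 88.3% of all entries) and 0 rose. With BYBX against control MII, 13 were higher (56.5%, against 65.2%) and 0 lower. Against GV, 13 were lower with BYBX (56.5%, against 69.2%) and 0 higher, the counts of 0 in limma being 0 at an unadjusted p under 0.05 as well. Nxf1, the mRNA export receptor, was at 44.2 and 32.0 FPKM in GV, 0.545, 0.735 and 0.716 in control MII and 8.73 and 11.1 with BYBX. Snupn, the adaptor that imports snRNPs, fell to 1.77% of its GV mean in control MII and was at 21.6% with BYBX. Cse1l, which returns importin alpha to the cytoplasm, fell to 12.04% and was at 27.8% with BYBX. Pom121 (104%), Ahctf1 (114%) and Rcc1 (69.8%) were the 3 not called between control MII and GV. They encode a membrane nucleoporin, the Y complex subunit that binds chromatin and the Ran exchange factor. The entry for Ran was at 6.32 to 7.62 FPKM in GV. At the same total FPKM 8 of the 23 were lower and 7 higher in control MII than in GV (34.8% and 30.4%, against 49.5% and 23.3% of all entries). With median centring these counts were 4 and 13 (17.4% and 56.5%, against 26.7% and 48.8%).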

How the data were processed

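The study's Smart-seq2 libraries of 10 oocytes were primed with oligo-dT, so a level is that of polyadenylated RNA. Per the labels and methods, the authors trimmed reads with Trim Galore 0.6.7, aligned them to mm10 with HISAT2 2.2.1, and computed FPKM from uniquely mapped reads with Cufflinks 2.2.1 on UCSC gene models. The authors normalized the FPKM to an ERCC spike-in and then used each batch's GV samples to bring the batches to one scale. The scaling factors and the batch of each library are not given in the sources used here, and no spike-in entries are listed, so neither could this scaling be redone nor a batch be fitted. The deposited FPKM keep no whole reads, so the depth is unknown and the precision is that of 2 or 3 libraries per group.

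From these values log2(FPKM + 1) was tested with limma 3.58.1 in R 4.3.3 (eBayes with an intensity trend, 3 group means, 7 libraries, 4 residual degrees of freedom) over the 9202 entries with a mean of the 3 group means of at least 1 FPKM, with Benjamini-Hochberg adjustment over all of them and a threshold of 0.05. In all, 4 entries with a missing value were left out, none of them a member. The step was tested on simulated data in which few entries changed and no library shifted as a whole. That run therefore does not check the scale of these libraries. Named with their values are members with at least 20 FPKM in a group mean, the 3 highest and 3 lowest differences of each comparison, members not called between control MII and GV, and the most abundant of each role. Other members are named for their role or after their values were seen. The members and lists were chosen with earlier results of these data known. Transcripts were from GENCODE vM21, in which 8766 of 9202 tested entries (95.3%) and all 36 tested members matched. Besides the overlaps given above, exons of Xpo4 (Gm49361), Nup188 (Gm28038) and Ipo4 (Gm49378) overlap protein-coding genes on the same strand. Those of Nup88 (Rabep1), Nup214 (Fam78a) and Tnpo3 (Irf5) do so on the opposite strand. Overlaps with non-coding genes are not listed. Python 3.11.15, numpy 2.4.6, pandas 2.3.3 and matplotlib 3.10.9 were used.

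The alternatives were a pseudocount of 0.1, a filter at 5 FPKM or none, the same total FPKM in each library, median centring, a 2-fold minimum, a variance model without the intensity trend, fits of only the groups being compared, a block for the replicate number, and each library left out in turn. Sequences of proteins were not used here.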

Additional observations from a re-analysis of the deposited data

How the results depend on the processing

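Scaling was the choice that changed most. Among the named members it turned the differences below. Between control MII and GV, the values with the same total FPKM and then with median centring were 1.68 and 2.12 for Ipo8, 0.69 and 1.16 for Nup107, 1.15 and 1.59 for Nup35, 1.26 and 1.69 for Nup37, 1.10 and 1.54 for Nup62, 0.68 and 1.13 for Nup85, 0.89 and 1.37 for Nup88, 0.43 and 0.92 for Nup93, 0.27 and 0.73 for Nup98, 1.32 and 2.2005 for Tnpo1, and 0.94 and 1.91 for Xpo4. Between BYBX-treated and control MII they were -0.083 and -0.50 for Nup107, -0.53 and -0.92 for Nup37, -0.51 and -0.91 for Nup62, -0.025 and -0.43 for Nup85, and -0.097 and -0.52 for Nup93. Median centring turned Kpna3 (-0.034), Kpna7 (-0.019), Nup35 (-0.90), Nup43 (-0.035), Nup88 (-0.89), Nup98 (-0.27), Tnpo1 (-1.07), Xpo1 (-0.095) and Xpo4 (-1.02), and the same total FPKM turned Nup35 (-0.51), Nup88 (-0.47), Tnpo1 (-0.51) and Xpo4 (-0.39) as well. Between BYBX-treated MII and GV, Ipo8 turned to 0.73 and 0.78, and Xpo4 to 0.55 and 0.89. In this comparison Nup37 turned to 0.73 and 0.77, Nup85 to 0.65 and 0.70, and Nup107 to 0.60 and 0.66. Nup35 turned to 0.64 and 0.69, Nup62 to 0.58 and 0.63, and Nup88 to 0.42 and 0.49. Nup93 turned to 0.34 and 0.40, and Nup98 to 0.41 and 0.46. Differences near 0 that were not called also changed sign elsewhere. Tnpo1 between control MII and GV was at 0.060 with the replicate block and at 0.17 without GV library 1. Ipo8 between BYBX-treated and control MII was at 0.034 and 0.057 without BYBX library 2 or control MII library 2. Tnpo1 and Xpo4 between BYBX-treated MII and GV changed sign without BYBX library 1 (-0.087 and 0.073), and also without a GV library (-0.16 and 0.014).

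The counts of members under these scalings stand beside the main ones in the report. Of the other pathway genes, the same total FPKM gave 8 lower and 7 higher in control MII than in GV, 3 and 4 for BYBX-treated against control MII, and 3 and 4 for BYBX-treated MII against GV. With median centring the same pairs of counts were 4 and 13, 12 and 4, and 3 and 7. For members, the same total FPKM gave 16 and 10, 3 and 12, and 3 and 3, and centring gave 9 and 18, 17 and 1, and 6 and 8. A minimum of 2-fold left 14 members and 7 other pathway genes higher with BYBX than in control MII.

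Leaving out 1 library at a time gave 29 to 33 members lower in control MII than in GV, 19 to 28 higher with BYBX than in control MII and 16 to 23 below GV with BYBX. For the other pathway genes these ranges were 16 to 20, 9 to 15 and 6 to 14, and the lowest, 6, was without the first GV library. Between control MII and GV, the calls of Nup35, Nup37 and Nup62 were lost without the first GV library (adjusted p 0.19, 0.066 and 0.13), and Nup35 and Nup37 also lost theirs without some of the control MII libraries (0.052 to 0.10). Between BYBX-treated and control MII, Nup85 lost its call without the first BYBX library (0.12), Nup107 without that one or control MII library 2 (0.10 and 0.056), and Nup93 without either BYBX library or without control MII library 2 or 3 (0.088 to 0.15).

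Libraries with the same number share only that number. Their deviations from the group means correlated at 0.487 and 0.282 between control MII and GV, at -0.601 and -0.348 between BYBX-treated and control MII, and at -0.330 between BYBX-treated MII and GV. With the replicate number as a block, 30 members were lower in control MII than in GV, 21 rose above control MII with BYBX and 20 were lower in BYBX-treated MII than in GV. The same counts of the other pathway genes were 19, 10 and 12. With this replicate block Nup35 and Nup37 lost their calls between control MII and GV (adjusted p 0.072 and 0.073). Nup93 and Nup107 lost only theirs between BYBX-treated and control MII (adjusted p 0.15 and 0.054). Further settings were a pseudocount of 0.1, a filter at 5 FPKM, fits of the 2 groups compared and no intensity trend. Between control MII and GV and between BYBX-treated and control MII, they changed no call of a named member that was followed and still tested. With no filter Nup93 lost its call between BYBX-treated and control MII. Between BYBX-treated MII and GV, single calls were followed only for Ipo8, Kpna2, Nup43, Tnpo1, Xpo1 and Xpo4, and these settings changed none. In this comparison the count of members lower with BYBX went from 22 to 19 with that pseudocount and to 20 with those fits. Which calls changed there was not followed.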
